A study of Mus musculus with 6 samples.

Results

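The 9 genes described here encode enzymes of the mitochondrial tricarboxylic acid (TCA) cycle: Cs, Idh3a, Idh3b, Idh2, Ogdh, Suclg1, Sucla2, Fh1 and Mdh2. They were chosen by name, with earlier results of these data known, and all 9 were found by symbol among the 13709 gene rows of a bulk RNA-Seq count table. The table covered Tregs of 2 genotypes with 3 samples each. WT samples came from Foxp3Cre mice, in which a bicistronic YFP-iCre cassette follows the Foxp3 stop codon, and KO samples came from Foxp3Cre Zfp335 fl/fl mice, which also carried floxed Zfp335 alleles. Both genotypes therefore carried Cre and YFP under control of Foxp3, and deletion was directed to Foxp3+ cells. The mice were on a C57BL/6 background and, per the study's methods, 2 weeks old, and cells were sorted as CD4+YFP+CD25+. The labels name both lymph nodes and spleen as the source of the cells, and do not say whether a sample was 1 mouse or a pool. The p-values below measure only the spread between these samples. In bulk RNA, fewer cells that express a gene and less RNA per cell cannot be told apart.

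The TCA cycle oxidizes the acetyl group of acetyl-CoA to carbon dioxide and passes electrons to NAD+ and FAD for the respiratory chain. It also supplies citrate, 2-oxoglutarate and oxaloacetate for the synthesis of lipids, amino acids and nucleotides. Tregs are known to rely on mitochondrial metabolism more than effector T cells do, and loss of mitochondrial function is known to impair their suppressive function. Citrate synthase (Cs) joins acetyl-CoA to oxaloacetate, isocitrate dehydrogenases (Idh3a, Idh3b, Idh2) and the 2-oxoglutarate dehydrogenase complex (Ogdh) release carbon dioxide, succinyl-CoA ligase (Suclg1, Sucla2) makes a nucleoside triphosphate, and fumarase (Fh1) and malate dehydrogenase (Mdh2) restore oxaloacetate.

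The genes lie on 9 different chromosomes. In build mm10 (GRCm38.p6, RefSeq) Cs spans chr10:128337727-128362482 on the plus strand, Idh3a chr9:54586511-54604662 (plus), Idh3b chr2:130279309-130284451 (minus), Idh2 chr7:80094845-80118608 (minus) and Ogdh chr11:6291597-6359094 (plus). Suclg1 spans chr6:73248505-73276907 (plus), Sucla2 chr14:73552786-73596144 (plus), Fh1 chr1:175601378-175625635 (minus) and Mdh2 chr5:135778649-135790386 (plus). Values are the deposited counts per gene. The study quantified genes with StringTie, and how whole-number counts were derived is not given in the sources used here. The exons of Idh3b share 5 bases with Nop56 on the opposite strand, and whether the counting used strand is not given in the sources used here. A transcript of Cs matches Csl at 91.9% identity over 1522 bases and the pseudogene Gm48254 at 92.1% over 469 bases, so reads of these copies could have been counted as Cs, and its values are uncertain to that extent. No other member had a copy of at least 90% identity over at least 200 bases.

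RefSeq promoter windows ran from 250 bases before to 50 bases after an annotated start. They were read for 8 of the 9 genes, and no window was available for Idh3a. There were 13 windows in all, of which 6 belong to Ogdh. Some Ogdh windows overlap, so the same motif site can count in more than 1 window. Chosen after the values were seen, 4 windows are printed because their genes moved in different directions: the transcripts of Mdh2, Cs and Fh1 were higher in KO samples and that of Suclg1 was lower. Each is written 5′ to 3′ on the strand of its gene, and the capitals mark the Sp1 motif GGGCGG, the NF-Y motif CCAAT (both in either orientation) and the palindrome CTCGCGAG. The windows are chr5:135778399-135778698 (plus) for Mdh2, chr10:128337477-128337776 (plus) for Cs, chr1:175625586-175625885 (minus) for Fh1 and chr6:73248255-73248554 (plus) for Suclg1.
Mdh2: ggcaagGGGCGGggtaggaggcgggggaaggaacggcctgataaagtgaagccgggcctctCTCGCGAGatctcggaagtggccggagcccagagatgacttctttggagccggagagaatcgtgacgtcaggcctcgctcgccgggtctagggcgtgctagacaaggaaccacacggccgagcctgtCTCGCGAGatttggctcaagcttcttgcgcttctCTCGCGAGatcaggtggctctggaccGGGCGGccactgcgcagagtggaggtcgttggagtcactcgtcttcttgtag
Cs: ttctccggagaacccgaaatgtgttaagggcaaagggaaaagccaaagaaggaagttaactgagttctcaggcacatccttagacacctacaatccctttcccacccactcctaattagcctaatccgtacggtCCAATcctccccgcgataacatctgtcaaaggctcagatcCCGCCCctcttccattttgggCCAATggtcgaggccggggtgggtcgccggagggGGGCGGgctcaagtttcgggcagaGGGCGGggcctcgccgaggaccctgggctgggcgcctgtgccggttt
Fh1: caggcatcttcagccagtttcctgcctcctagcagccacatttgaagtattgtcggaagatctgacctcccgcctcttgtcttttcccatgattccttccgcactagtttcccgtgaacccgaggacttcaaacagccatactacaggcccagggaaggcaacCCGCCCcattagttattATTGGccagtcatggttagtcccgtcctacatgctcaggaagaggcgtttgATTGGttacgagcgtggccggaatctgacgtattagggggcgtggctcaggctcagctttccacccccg
Suclg1: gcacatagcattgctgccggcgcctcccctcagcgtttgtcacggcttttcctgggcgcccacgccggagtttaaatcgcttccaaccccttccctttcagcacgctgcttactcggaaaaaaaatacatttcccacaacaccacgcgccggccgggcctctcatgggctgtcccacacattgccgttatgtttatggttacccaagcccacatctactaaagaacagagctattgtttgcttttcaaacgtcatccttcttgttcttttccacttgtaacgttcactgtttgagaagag
The motif GGGCGG was present in 9 of the 13 windows, from 6 of the 8 genes (Cs, Fh1, Idh2, Mdh2, Ogdh and Sucla2), and in 35.7% of all 32851 promoter windows. CCAAT was present in 10 windows, from 5 genes (Cs, Fh1, Idh2, Idh3b and Ogdh), and in 37.4% of all windows. The GABP/ETS motif CCGGAAG (8.9% of all windows) was found for Idh3b alone, in 1 window. The E-box CACGTG (7.2%) and the NRF1 core GCGCATGC (2.7%) were found for Ogdh alone, in 3 and 2 of its windows. The palindrome CTCGCGAG occurred 3 times in the Mdh2 window and in 0.9% of all windows, and it was searched for after the sequences had been read. Suclg1 held none of these letters in its window. Both strands were searched, none of the motifs contains another, and these matches are descriptions of sequence.

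Total counts were 32032631 to 40728419 per sample, which left at least 886 counts for each of the 9 genes in every sample. The deleted gene was checked first: Zfp335 stood at 101, 94.3 and 103 CPM (counts scaled to a common library total) in WT1, WT2 and WT3 and at 37.0, 37.9 and 40.2 CPM in KO1, KO2 and KO3, and the groups did not overlap (log2 fold change -1.37, SE 0.07, edgeR adjusted p = 2.14e-05). Its exons share 1107 bases with Pcif1 on the opposite strand. The first principal component, with 71.0% of the variance, separated the genotypes, while the second, with 17.1%, set WT3 (-41.5) apart from WT1 (19.3) and WT2 (22.7). Results are therefore also given without WT3. The summed CPM of 6 Treg markers was 3671 to 4972 in WT and 3185 to 3270 in KO samples; all 6 were detected, 0 were called higher and 2 were called lower. The summed CPM of 10 proliferation genes was 918, 912 and 390.4 in WT1 to WT3 and 2824 to 2926 in KO samples, with 10 of 10 called higher. Markers of myeloid cells (8.50 to 19.6 CPM in WT and 38.7 to 43.7 CPM in KO, 4 of the 4 analysed called higher) and NK cells (3.59 to 5.83 and 14.9 to 16.2 CPM, 2 of 3 called higher) were low in all samples. CD8 markers stood at 9.32 to 13.2 CPM in WT and 12.0 to 12.7 CPM in KO (1 of 2 called higher), those of B cells at 16.0 to 18.1 and 10.8 to 11.0 CPM (1 of 4 called lower), and those of erythroid cells at 15.5 to 63.2 and 27.3 to 30.0 CPM (0 of 3 called). The part of these differences in the values below was not tested.

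To determine how TCA cycle transcripts differed between KO and WT Tregs, each gene was compared by edgeR's quasi-likelihood test over 13594 genes, with Benjamini-Hochberg adjustment. Transcripts of 5 of the 9 enzymes (Cs, Idh3a, Ogdh, Fh1 and Mdh2) were higher in KO samples at an adjusted p under 0.1, by 1.21-fold to 1.67-fold in mean CPM. Suclg1 was lower, at 82.2% of its WT mean, and Idh3b, Idh2 and Sucla2 did not pass. Of all genes tested, 47.0% passed this threshold, 22.7% as higher and 24.3% as lower, against 6, 5 and 1 of the 9. When a fold above 1.5 was also required, which defined a called gene, 1 member was called (Idh3a, higher) and 0 were called lower, beside 24.4% of all genes, 11.9% higher and 12.5% lower. The groups did not overlap for the same 6 genes, 5 higher and 1 lower, as for 53.8% of all genes, 26.2% higher and 27.6% lower. The median log2 fold change of the 9 genes was 0.27, beside -0.04 over all genes. Without WT3 these medians were 0.21 and -0.02.

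**Figure D1:**
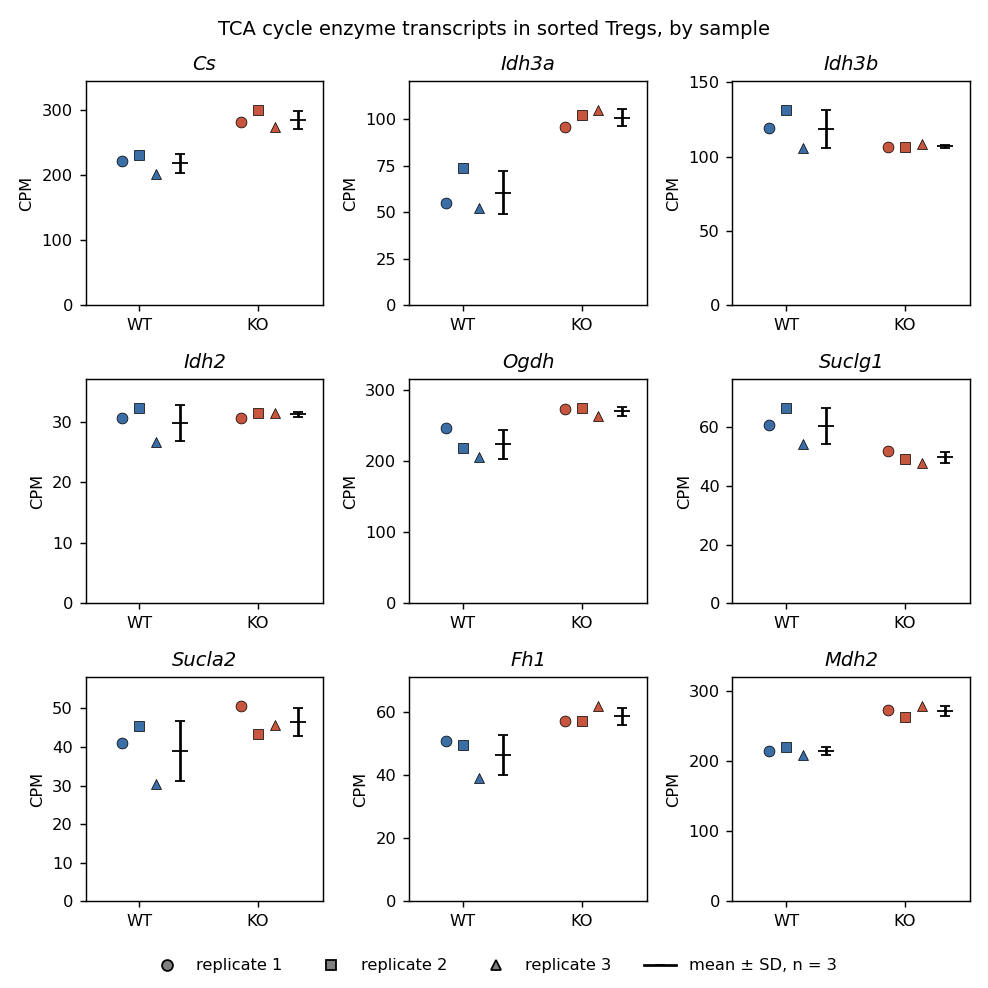
Level of each of the 9 enzyme transcripts in CPM (linear axes from 0) in the 3 WT (blue) and 3 KO (red) samples; the symbol gives the replicate and the bars give the mean ± SD. KO values of Cs, Idh3a, Ogdh, Fh1 and Mdh2 all lie above the WT values, those of Suclg1 lie below, and the other 3 overlap.

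Cs, which commits acetyl-CoA to the cycle, stood at 221, 230.2 and 202 CPM in WT1, WT2 and WT3 and at 281, 299.5 and 274 CPM in KO1, KO2 and KO3. Every KO sample was above every WT sample. The mean rose from 218 ± 14.3 to 285 ± 13.3 CPM (SD, n = 3), or by 0.39 on the log2 scale (SE 0.08, adjusted p = 0.00541).

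The NAD-dependent isocitrate dehydrogenase makes 2-oxoglutarate in the mitochondrial matrix and is built from catalytic alpha subunits (Idh3a) and from beta (Idh3b) and gamma (Idh3g) subunits. Idh3a had the largest log2 fold change of the 9 genes. It measured 55.2, 73.5 and 52.3 CPM in WT and 95.5, 102 and 105 CPM in KO samples, so the highest WT sample, WT2, was still below the lowest KO sample. The mean went from 60.3 ± 11.5 to 101 ± 4.70 CPM (SD, n = 3), with a log2 fold change of 0.74 (SE 0.13, 95% confidence interval 0.44 to 1.04, adjusted p = 0.00329). Idh3b, by contrast, was at 119, 131 and 106 CPM in WT and at 107, 106 and 108 CPM in KO samples. Its KO samples lay within the lower end of the WT range, and its means were 119 ± 12.6 and 107 ± 1.05 CPM. The log2 fold change of Idh3b was -0.15 (SE 0.09, 95% confidence interval -0.35 to 0.05, adjusted p = 0.207), and it was -0.23 (adjusted p = 0.00683) without WT3 and -0.08 (adjusted p = 0.487) without WT2.

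Idh2, the NADP-dependent isocitrate dehydrogenase of mitochondria, supplies NADPH. It was found at 30.7, 32.3 and 26.6 CPM in WT and at 30.7, 31.6 and 31.5 CPM in KO samples, and WT3 was the only sample below 30 CPM. The KO values lay inside the WT range. A log2 fold change of 0.07 (SE 0.10, 95% confidence interval -0.16 to 0.29, adjusted p = 0.624) bounds the difference to less than 1.5-fold in either direction, and without WT3 its sign turned (-0.01).

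Ogdh encodes the first component of the 2-oxoglutarate dehydrogenase complex, which makes succinyl-CoA. Levels of 247, 219 and 205 CPM in WT and 274, 275 and 263 CPM in KO samples did not overlap, and WT1 was the WT sample nearest to them. The means were 224 ± 20.9 and 270.5 ± 6.41 CPM (SD, n = 3), and the log2 fold change was 0.27 (SE 0.08, adjusted p = 0.0309). Without KO1 or KO2 its adjusted p was 0.102 or 0.106.

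Succinyl-CoA ligase pairs a common alpha subunit (Suclg1) with a beta subunit that sets its nucleotide, ADP for Sucla2 and GDP for Suclg2. With all 6 samples, Suclg1 was the 1 member that was lower in KO samples at an adjusted p under 0.1. It measured 60.5, 66.3 and 54.0 CPM in WT and 51.8, 49.2 and 47.8 CPM in KO samples, and the KO samples all lay below the WT samples, with WT3 nearest to KO1. Its mean went from 60.3 ± 6.14 to 49.6 ± 2.03 CPM (SD, n = 3), which is -0.28 on the log2 scale (SE 0.09, adjusted p = 0.0431). That adjusted p was 0.111 without WT2, 0.129 without KO2 and 0.149 without KO3. Sucla2 was at 41.1, 45.4 and 30.3 CPM in WT and at 50.6, 43.3 and 45.6 CPM in KO samples. WT2 lay within the KO range and WT3 was the lowest of the 6, so the groups overlapped. The log2 fold change of Sucla2 was 0.26 (SE 0.15, 95% confidence interval -0.09 to 0.60, adjusted p = 0.213), and it was 0.10 without WT3.

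Fh1, which hydrates fumarate to malate, was at 50.8, 49.6 and 39.3 CPM in WT and at 57.2, 57.1 and 62.0 CPM in KO samples. The groups did not overlap, with WT3 well below the other WT samples. The log2 fold change was 0.34 (SE 0.11, adjusted p = 0.0428), and it was 0.22 without WT3. Its adjusted p was 0.145 without KO3 and 0.13 with offsets for GC content and length. Mdh2, which oxidizes malate to oxaloacetate, was at 214, 221 and 209 CPM in WT and at 274, 264 and 279 CPM in KO samples. Its samples varied least within WT, and the groups were far apart. The mean of Mdh2 went from 215 ± 6.17 to 272 ± 7.51 CPM (SD, n = 3), or by 0.34 on the log2 scale (SE 0.06, adjusted p = 0.00398).

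**Figure D2:**
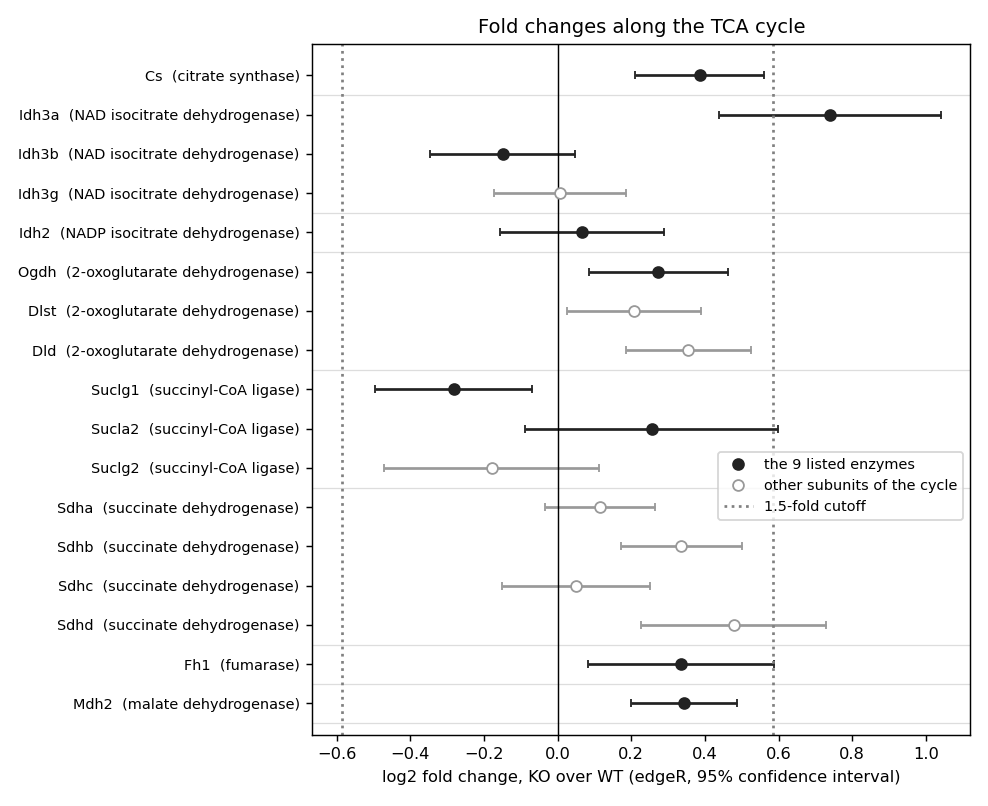
Log2 fold change of KO over WT with its 95% confidence interval (edgeR) for the 9 enzymes (filled) and 8 other subunits of the cycle (open), in the order of the reactions; dotted lines mark 1.5-fold. Idh3a (0.74) is the only point beyond the 1.5-fold line, and Suclg1 (-0.28) is the only listed enzyme whose interval lies below 0.

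WT3 had the lowest CPM of the WT samples for 9 of the 9 genes, beside 39.3% of all genes. The CPM summed over the 9 genes was 1039, 1069 and 925 in WT1, WT2 and WT3 and 1221, 1228 and 1215 in KO1, KO2 and KO3, so WT3 was furthest from the KO samples and the KO samples were close to each other. The coefficient of variation was 2.87% to 19.9% among WT and 0.977% to 8.0% among KO samples, and it was larger in WT for 9 of the 9 genes, as for 75.8% of all genes. Without WT3, 7 of the 9 genes passed an adjusted p of 0.1 (57.9% of all genes did), with Idh3b added as lower, and 1 was called (26.8% of all genes). In that comparison the log2 fold change was 0.33 for Cs, 0.64 for Idh3a, 0.21 for Ogdh, 0.32 for Mdh2 and -0.36 for Suclg1. Across all 12 alternatives of tool, scaling, filter, offset, replicate block or left-out sample, the log2 fold change stayed at 0.63 to 0.90 for Idh3a, 0.33 to 0.42 for Cs and 0.30 to 0.37 for Mdh2, and each passed in every one.

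**Figure D3:**
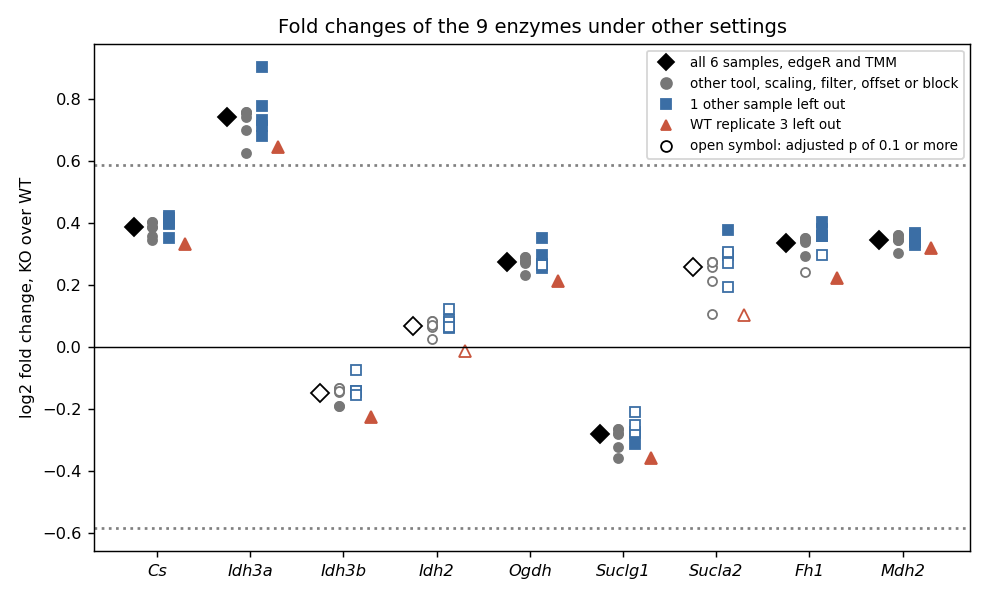
Log2 fold change of KO over WT for each of the 9 enzymes with all 6 samples (black), with another tool, scaling, filter, offset or block (grey), with 1 sample left out (blue) and without WT3 (red); open symbols have an adjusted p of 0.1 or more and dotted lines mark 1.5-fold. Idh3a lies above the 1.5-fold line in every setting, and Idh2 without WT3 is the only value that crosses 0.

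To compare levels between genes, CPM was divided by the length of the merged exons. In WT samples the order of mean CPM per kb was Mdh2 (147 ± 4.24), Cs (74.5 ± 4.89), Idh3b (73.5 ± 7.80), Ogdh (50.3 ± 4.70), Suclg1 (39.7 ± 4.04), Idh3a (23.4 ± 4.47), Fh1 (17.7 ± 2.39), Sucla2 (17.5 ± 3.47) and Idh2 (17.1 ± 1.67; SD, n = 3). The WT samples of Cs and Idh3b, of Fh1 and Sucla2, and of Sucla2 and Idh2 overlapped. In KO samples Mdh2 (187 ± 5.16) and Cs (97.3 ± 4.56) again led, followed by Idh3b (66.3 ± 0.648) and Ogdh (60.8 ± 1.44). Idh3a (39.0 ± 1.82) and Suclg1 (32.6 ± 1.33) had changed places, and Fh1 (22.3 ± 1.05), Sucla2 (20.8 ± 1.67) and Idh2 (17.9 ± 0.261) came last, with overlap only between Fh1 and Sucla2. Idh3a made up 5.05% ± 0.663 of the summed CPM per kb of the 9 genes in WT and 7.17% ± 0.338 in KO samples, while Suclg1 went from 8.59% ± 0.263 to 6.00% ± 0.244 and Idh3b from 15.9% ± 0.559 to 12.2% ± 0.101.

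Ratios between subunits or isozymes within a sample do not depend on library scaling, and 10 pairs were compared by an exact permutation test, two-sided, which with 3 against 3 samples cannot give a p below 0.1. The ratio of Idh3a to Idh3b in CPM per kb was 0.290, 0.351 and 0.309 in WT and 0.561, 0.600 and 0.605 in KO samples. The groups were far apart, and the ratio was 1.86-fold higher in KO (exact permutation p = 0.1, 0.25 adjusted over the 10 pairs). Against the gamma subunit Idh3g the ratio of Idh3a was 0.345, 0.418 and 0.277 in WT and 0.554, 0.583 and 0.584 in KO samples, a 1.68-fold difference with no overlap. Idh3a was thus higher relative to both other subunits in every KO sample than in any WT sample.

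The ratio of Sucla2 to Suclg1 was 0.463, 0.466 and 0.383 in WT and 0.666, 0.600 and 0.651 in KO samples, 1.47-fold higher in KO with no overlap. Idh2 to Idh3a, the NADP-dependent enzyme against the alpha subunit alone of the NAD-dependent one, was 0.822, 0.649 and 0.753 in WT and 0.476, 0.457 and 0.445 in KO samples, with no overlap and a fold of 0.622. These 4 pairs each had the smallest p that the design allows (exact permutation p = 0.1, 0.25 adjusted). All of them but Sucla2 to Suclg1 contain Idh3a, so they are not separate results. Sucla2 to Suclg2 was 1.38, 1.97 and 0.964 in WT and 1.89, 1.82 and 1.92 in KO samples, and here the groups overlapped (exact permutation p = 0.4).

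In the other 5 pairs the groups also overlapped. Mdh2 to the cytosolic Mdh1 was 2.31, 2.43 and 2.22 in WT and 2.38, 2.43 and 2.60 in KO samples, a fold of 1.06 (exact permutation p = 0.2). The fold in the ratio was 1.12 for Idh2 to the cytosolic Idh1, 1.05 for Ogdh to Dlst, the second component of its complex and 1.03 for Cs to Mdh2. The ratio of Fh1 to Mdh2 differed by 0.0011 on the log2 scale.

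**Figure D4:**
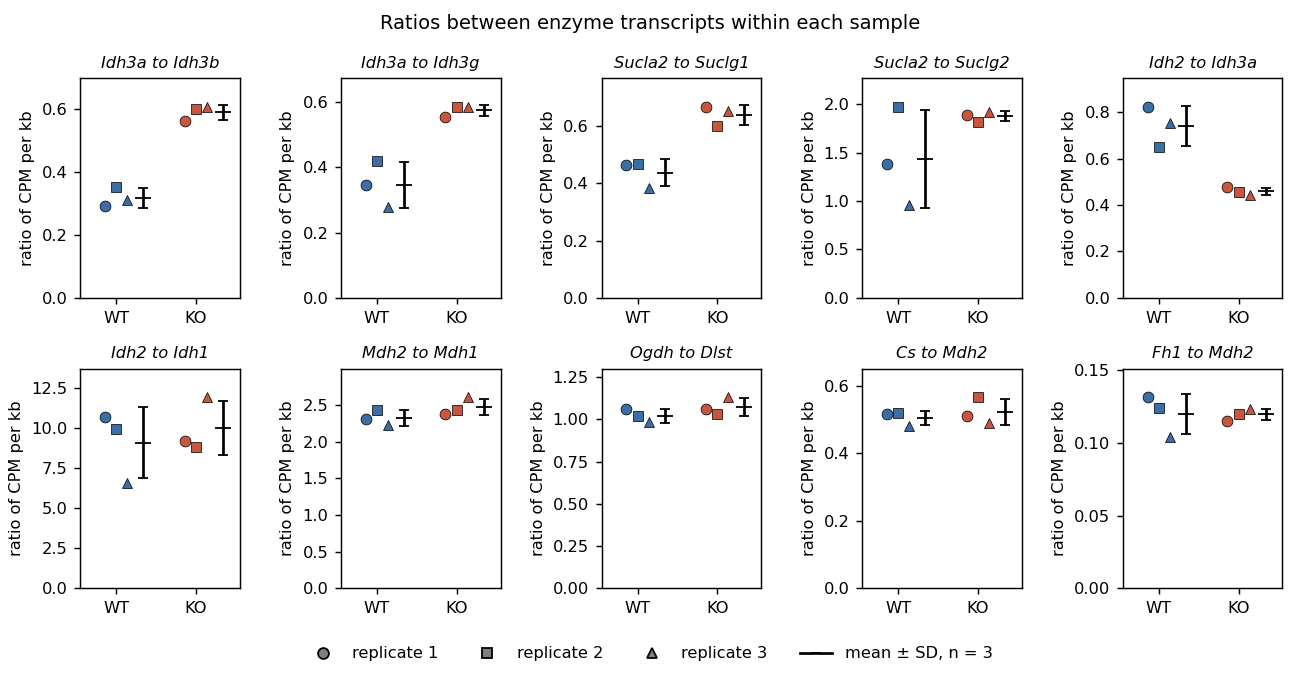
Ratio of CPM per kb between 2 transcripts of the same sample (linear axes from 0) for 10 pairs, in WT (blue) and KO (red) samples; the symbol gives the replicate and the bars give the mean ± SD. The groups do not overlap for Idh3a to Idh3b, Idh3a to Idh3g, Sucla2 to Suclg1 and Idh2 to Idh3a.

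Among 8 other subunits of the cycle, 4 rose at an adjusted p under 0.1 (22.7% of all genes did), 0 fell and 0 were called, with a median log2 fold change of 0.16. The 4, named after their values were seen, were the succinate dehydrogenase subunits Sdhb (0.34, adjusted p = 0.00764) and Sdhd (0.48, adjusted p = 0.0105), the shared dehydrogenase component Dld (0.35, adjusted p = 0.00702) and Dlst (0.21, adjusted p = 0.072). Idh3g (0.01), Suclg2 (-0.18), Sdha (0.12) and Sdhc (0.05) did not pass. Subunits of the same enzyme thus stood on both sides of the threshold for isocitrate dehydrogenase, succinyl-CoA ligase and succinate dehydrogenase. Ogdh, Dlst and Dld of the 2-oxoglutarate dehydrogenase complex all passed as higher. Standing on different sides of a threshold is not a test of a difference between subunits.

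Of 13 genes of pyruvate entry (the mitochondrial pyruvate carrier, the pyruvate dehydrogenase complex with its kinases and phosphatases, and pyruvate carboxylase), 4 rose, 3 fell and 6 did not pass, where 22.7% and 24.3% of all genes rose and fell, and the median log2 fold change was 0.07. The 2 that were called are pyruvate dehydrogenase kinases, which inhibit the pyruvate dehydrogenase complex. Pdk2 was at 15.2, 13.8 and 13.3 CPM in WT and at 7.94, 8.11 and 8.14 CPM in KO samples, with no overlap and a log2 difference of -0.81 (SE 0.12, adjusted p = 0.00161). Pdk4 was low throughout, at 0.136, 0.396 and 0.0901 CPM in WT and 1.01, 1.57 and 1.45 CPM in KO samples, and was called higher (2.68, adjusted p = 0.00994). Of the other kinases, given after their values were seen, Pdk1 fell from 93.3 ± 7.24 to 68.8 ± 1.18 CPM (SD, n = 3; log2 fold change -0.44, adjusted p = 0.00305), with no overlap, and Pdk3 did not pass (0.27, adjusted p = 0.14). Thus 2 of the 4 kinases fell, and the 1 that rose was the lowest in CPM.

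Of the 5 cytosolic counterparts tested, 3 rose, 0 fell and 1 was called higher, beside 22.7%, 24.3% and 11.9% of all genes. Got1, the cytosolic aspartate aminotransferase of the malate-aspartate shuttle, was at 47.7, 57.4 and 45.5 CPM in WT and at 77.6, 74.6 and 75.8 CPM in KO samples, with no overlap and a log2 fold change of 0.60 (adjusted p = 0.00248). Without WT3 it was 0.53 and Got1 was not called. Mdh1, its partner in the shuttle, had a log2 fold change of 0.25 (adjusted p = 0.0141), and ATP citrate lyase Acly, which splits exported citrate and is named after its values were seen, one of 0.40 (adjusted p = 0.00166). Over the 39 genes tested outside the 9, 7 were called higher and 3 lower, where 11.9% and 12.5% of all genes were, and the median log2 fold change was 0.20. Without WT3, a comparison added after seeing the data, 4 were called higher and 2 lower, and the median was 0.12. Of all genes, 26.8% were called in that comparison, counting both directions. Pdp2 (0.62), a pyruvate entry gene named after its values were seen, was called higher only without WT3.

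The genes most like Idh3a over the 6 samples were found by the root-mean-square distance between centred log2 CPM values, among 9871 genes. They were Usp1 (distance 0.0537), a ubiquitin-specific protease, Mindy3 (0.0557), a deubiquitinase, and Kpna3 (0.0689), a nuclear import receptor. Usp1 had 98.0, 117 and 88.6 CPM in WT and 161, 165 and 170 CPM in KO samples. Like Idh3a, it was highest in WT2 and lowest in WT3 among the WT samples, a likeness that the choice by distance favours. The nearest of the other 8 enzymes, Cs, ranked 751 at a distance of 0.223, and Suclg1, the farthest, ranked 6283 at 0.528.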

How the data were processed

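Whole-number counts per gene for 6 samples were deposited by the authors, who, per the methods, filtered reads with SOAPnuke 1.5.6 and aligned them with HISAT2 to mm10, keeping 1 alignment per read, and quantified genes with StringTie. How whole-number counts were derived, the strand setting and the annotation are not given in the sources used here. Groups were taken from the labels.

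The counts were tested with edgeR 4.0.16 (R 4.3.3): filterByExpr with a minimum count of 10 (115 genes removed), TMM factors (0.98 to 1.037), the quasi-likelihood F-test, two-sided, with Benjamini-Hochberg adjustment over 13594 genes. A gene was called at a fold above 1.5, p under 0.05 and adjusted p under 0.1. CPM used TMM-scaled totals. Lengths were merged exons of GENCODE, matched for 97.9% of symbols. Ratios were tested with scipy 1.17.1. Alternatives were DESeq2 1.42.0, RLE or library-total scaling, no filter, GC content and length offsets, a replicate block and leaving out each sample. Others were a test against 1.5-fold at an adjusted p under 0.05, and an adjusted p under 0.05 with no fold.

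The members and gene lists were chosen with earlier results of these data known. Named genes were Zfp335, the 9 enzymes, listed pathway genes that were called or formed a ratio with a member, and the 3 genes nearest to the called member among those with a mean of at least 5 CPM. Further genes are named as chosen after their values were seen. Me1 was not analysed here, and Nnt, on more than 1 row, was left out. Some listed genes are not reported here.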

Additional observations from a re-analysis of the deposited data

How the results depend on the processing

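The number of the 9 enzymes called was 1 in the main comparison and in 12 alternatives. It was 0 when the test was against a fold of 1.5 at an adjusted p under 0.05, with 1402 genes called. The main comparison, at an adjusted p under 0.1, called 3318 genes. Where only an adjusted p under 0.05 was required, 6 enzymes and 5244 genes were called. With the replicate block 3190 genes and 1 enzyme were called, and 6 enzymes had an adjusted p under 0.1. Same-numbered samples did not deviate together (correlations 0.058, 0.033 and -0.004). Leaving out 1 sample gave 4 to 7 enzymes with an adjusted p under 0.1 (4 without KO2 or without KO3, 5 without KO1, 7 without WT3). Of all genes, 47.0% had an adjusted p under 0.1 with all 6 samples and 57.9% without WT3. That share is not given for the replicate block or the other left-out samples. Genes called also moved, to 2867 without KO1, 2917 without KO2, 2923 without KO3 and 3667 without WT3. These counts are therefore not read as results about the enzymes. The log2 fold change of Idh2 turned from 0.0665 to -0.0134 without WT3 and was at most 0.1215. The log2 ratio differences with 1 sample left out ranged from -0.0596 to 0.2933 for Idh2 to Idh1, from -0.0146 to 0.0899 for Cs to Mdh2 and from -0.0965 to 0.0702 for Fh1 to Mdh2. With GC content and length offsets Idh3b passed (-0.19, adjusted p = 0.0738) and Fh1 did not (0.24, adjusted p = 0.13), and Fh1 was at 0.145 without KO3. Sucla2 passed without WT2 (0.38, adjusted p = 0.0983). The cause was not tested. Over these settings the median over all genes lay between -0.07 and -0.02. Each enzyme had at least 886 counts in a sample, and 3 samples a group keep the ratio tests at a p of 0.1 or more.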

Other observations

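Mitochondrial reactions that feed or drain the cycle were also read. Of 7 such genes tested, 5 rose, 1 fell and 1 did not pass at an adjusted p under 0.1, with 3 called higher, 1 called lower and a median log2 fold change of 0.31. Of all genes, 22.7% rose, 24.3% fell, 11.9% were called higher and 12.5% lower. Got2, the mitochondrial aspartate aminotransferase, was at 171, 180 and 139 CPM in WT and at 256, 242 and 256 CPM in KO samples, with no overlap and a log2 fold change of 0.62 (adjusted p = 0.00241). Oxct1, which activates ketone bodies, was at 60.0, 62.4 and 40.5 CPM in WT and at 86.3, 80.5 and 85.1 CPM in KO samples, again with WT3 lowest and no overlap (0.63, adjusted p = 0.0143). The glutaminase Gls2 was called higher (2.15, adjusted p = 0.0643) from 0.0272, 0.213 and 0.511 CPM in WT to 0.739, 1.12 and 1.48 CPM in KO samples, which is low in all. The malic enzyme Me3 was called lower (-1.95, adjusted p = 0.00832), from 0.896, 1.10 and 0.931 CPM in WT to 0.246, 0.249 and 0.255 CPM in KO samples. Me3 was low in all samples. Me2, another mitochondrial malic enzyme, is named after its values were seen. It rose from 81.95 ± 1.84 to 101 ± 6.23 CPM (SD, n = 3), with no overlap (0.31, adjusted p = 0.0108).

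Of 6 mitochondrial carriers, 2 were called higher and 1 lower, where 11.9% and 12.5% of all genes were. The dicarboxylate carrier Slc25a10 had a log2 fold change of 0.97 (adjusted p = 0.00352) and the aspartate-glutamate carrier Slc25a13 one of 0.72 (adjusted p = 0.0627). Slc25a13 was at 11.1, 11.9 and 5.50 CPM in WT1, WT2 and WT3 and at 15.6, 15.3 and 16.1 CPM in KO samples, so WT3 was far below the other WT samples. Its log2 fold change was 0.45 without WT3. The glutamate carrier Slc25a22 fell, with 85.6, 74.6 and 90.1 CPM in WT and 54.9, 54.7 and 56.9 CPM in KO samples and no overlap (-0.59, adjusted p = 0.00143). Without WT3, a comparison added after seeing the data, Got2 (0.52), Oxct1 (0.45), Slc25a13 and Slc25a22 (-0.53) still had an adjusted p under 0.1 but were no longer called, which left 1 reaction gene and 1 carrier called higher and 1 reaction gene called lower. Gls2 was at 3.21 in that comparison.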
